A study of Homo sapiens with 6 samples.

Results

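Cells carrying one short hairpin RNA (shRNA) against PEA15 were set directly against cells carrying another. The comparison takes 4 of the 6 arrays of the study, 2 of HCT116 cells with PEA15 shRNA #2 and 2 of HCT116 cells with PEA15 shRNA #1. The 2 arrays with a non-silencing hairpin were not used. HCT116 is an established human colorectal carcinoma cell line of epithelial origin. Per the labels, both lines derive from HCT116, express a hairpin against PEA15 stably and were grown under the same conditions, and no drug or other treatment is named. The labels separate them by the hairpin, and other differences between the lines cannot be told apart from it. The sources do not say whether each line is a clone or a pool. The replicates of a group are numbered, but nothing in the labels puts them in separate cultures, so the p-values below reflect the spread among these arrays alone and that spread may be technical.

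A short hairpin RNA is cut by the cell into a small RNA that guides the silencing machinery to messenger RNAs with a matching sequence. A pair of hairpins against 1 gene is a common control in such work, because the hairpins share the intended target and not their other matches. PEA15 is a small death effector domain protein that holds the kinases ERK1 and ERK2 in the cytoplasm and binds the adaptor FADD. The hairpin sequences were not analysed here.

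Each sample was hybridised to an Illumina bead array, on which 47323 oligonucleotide probes capture labelled RNA. Between 19441 and 20351 probes (41.1% to 43%) per array were detected, meaning a detection p under 0.05 against the array's negative control beads. The test covered the 19151 probes detected on both arrays of at least 1 hairpin, of which 14951 carry 1 gene symbol (11253 genes) and 4200 have no listed gene. Levels are background-corrected, normalized log2 signals, and every difference is PEA15 shRNA #2 minus PEA15 shRNA #1. Across the tested probes the arrays correlated with r = 0.995 within PEA15 shRNA #2, 0.994 within PEA15 shRNA #1 and 0.988 to 0.989 between hairpins. The median absolute difference between the 2 arrays was 0.12 with PEA15 shRNA #2 and 0.13 with PEA15 shRNA #1, against 0.16 between the group means. These are unlike measures, because means of 2 arrays vary less than single arrays.

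The targeted gene was detected on all 4 arrays. PEA15 had log2 levels of 7.73 and 7.95 with PEA15 shRNA #2, against 8.24 and 8.19 with PEA15 shRNA #1. Both PEA15 shRNA #2 arrays lay below both PEA15 shRNA #1 arrays. The difference was -0.38 ± 0.12 (SE, 95% confidence interval -0.66 to -0.09) and did not pass the test (limma adjusted p = 0.14). It did pass on quantile-normalized signals without background correction (limma adjusted p = 0.0358). CDK6, a kinase that drives entry into the cell cycle, had levels of 10.00 and 10.00 with PEA15 shRNA #2, against 10.26 and 10.22 with PEA15 shRNA #1 (limma adjusted p = 0.225). JUN, a subunit of the transcription factor AP-1, had levels of 7.52 and 7.68 with PEA15 shRNA #2, against 7.41 and 7.44 with PEA15 shRNA #1 (limma adjusted p = 0.393).

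Of the 12 largest rises with PEA15 shRNA #2, 8 were genes of the amino acid response, among them ASNS, TRIB3 and CHAC1. The 3 largest falls were ADAM19, CEMIP and FGF9. Of the 19151 probes, 338 passed the test (1.76%, limma with Benjamini-Hochberg adjustment, threshold 0.05), 207 of them higher (1.08%) and 131 lower (0.684%) with PEA15 shRNA #2. They represent 142 genes that were higher and 103 that were lower, and 66 of the 338 probes have no listed gene. The smallest difference called was 0.59 and the median 0.82, and 76 probes (0.397%) differed by at least 1 on the log2 scale, 61 higher and 15 lower. All 338 had arrays that did not overlap between hairpins, but so did 54.4% of all probes tested. At an unadjusted limma p under 0.05 stood 4327 of the 19151 probes, to be set beside the list counts at that level below. In RNA from whole cultures, fewer cells that express a gene and less of its RNA per cell cannot be told apart. The count rests on all 4 arrays: leaving out replicate 1 of PEA15 shRNA #2 left 0 probes past the limma test (3530 at an unadjusted p under 0.05), and leaving out its replicate 2, or replicate 1 or 2 of PEA15 shRNA #1, left 9, 12 and 11. Each of these fits has 1 residual degree of freedom where the full fit has 2, and the lone array is assumed to vary like the other hairpin's. Some named genes were picked by their results without 1 array, so their ranges over all the settings tried are a description. PCK2 differed by 1.76 to 2.26, KRT80 by 1.47 to 2.09, ASNS by 1.83 to 1.96 and TRIB3 by 1.66 to 1.86. ADAM19 differed by -2.05 to -1.81 and CEMIP by -1.89 to -1.31. CHAC1 differed by 0.84 to 2.19, but it was kept for the test only through PEA15 shRNA #2, so its passing is no support.

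**Figure D1:**
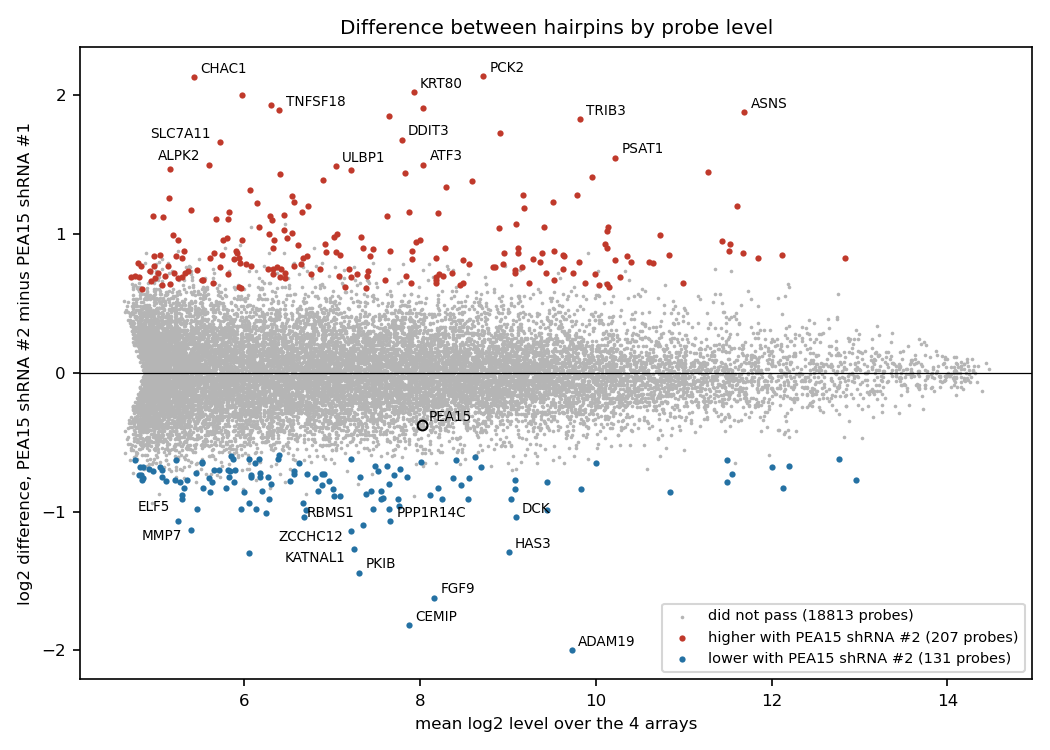
Log2 difference between hairpins (PEA15 shRNA #2 minus PEA15 shRNA #1) against the mean log2 level over the 4 arrays, 1 point per probe. The 207 higher probes (red) reach 2.14 and the 131 lower ones (blue) reach -2.00, while PEA15 (circled) lies at -0.38 among the probes that did not pass (grey).

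The integrated stress response works through the translation factor eIF2, which is phosphorylated by kinases that sense missing amino acids, unfolded protein in the endoplasmic reticulum, double-stranded RNA or a lack of heme. General translation then falls while the messenger RNA of the transcription factor ATF4 is translated more, and ATF4, with C/EBP partners, switches on genes that make, import and charge amino acids. The composite site that ATF4 and C/EBP proteins bind was searched for on both strands as TGATGNAA in the 250 bases upstream of gene starts, taken from RefSeq on GRCh38.p14. Among the genes that passed the test and matched a promoter, 8 of 110 higher genes (7.27%) and 2 of 88 lower genes (2.27%) held it. The share was 1.43% of 9040 tested genes and 3.19% of all 27305 promoters in that set. Among the called genes of the 5 lists on ATF4 and amino acids described next, 4 of the 26 with a promoter held it. Their promoters are shown on the gene's strand because these 4 genes were all higher with PEA15 shRNA #2, with the match to the site, on either strand, in capitals. They lie at chr15:40953221-40953470 (plus strand) for CHAC1, chr7:97872409-97872658 (minus strand) for ASNS, chr1:212565157-212565406 (plus strand) for ATF3 and chr16:70289507-70289756 (minus strand) for AARS1.
CHAC1: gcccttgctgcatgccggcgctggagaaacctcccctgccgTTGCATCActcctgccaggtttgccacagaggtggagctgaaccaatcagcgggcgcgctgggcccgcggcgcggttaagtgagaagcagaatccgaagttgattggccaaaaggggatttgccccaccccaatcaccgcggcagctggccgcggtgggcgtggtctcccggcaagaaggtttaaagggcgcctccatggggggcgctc
ASNS: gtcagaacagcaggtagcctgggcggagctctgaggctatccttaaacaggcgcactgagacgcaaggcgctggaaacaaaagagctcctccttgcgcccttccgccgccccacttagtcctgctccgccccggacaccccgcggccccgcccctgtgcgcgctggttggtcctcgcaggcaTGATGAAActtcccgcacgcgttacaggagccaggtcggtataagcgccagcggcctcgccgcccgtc
ATF3: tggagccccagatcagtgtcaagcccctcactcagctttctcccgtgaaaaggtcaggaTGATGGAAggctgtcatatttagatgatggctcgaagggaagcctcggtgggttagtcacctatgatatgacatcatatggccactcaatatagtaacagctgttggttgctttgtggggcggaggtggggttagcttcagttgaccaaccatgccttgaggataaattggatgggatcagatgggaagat
AARS1: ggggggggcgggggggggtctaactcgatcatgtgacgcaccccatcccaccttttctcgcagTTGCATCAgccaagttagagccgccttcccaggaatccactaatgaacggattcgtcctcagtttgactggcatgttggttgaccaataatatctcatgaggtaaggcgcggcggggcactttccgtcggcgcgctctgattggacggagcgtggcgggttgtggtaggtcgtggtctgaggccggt

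A match is a description of these letters and not evidence of binding. The share was not counted among the uncalled genes of the 5 lists, so the 4 of 26 is no support for a tie to the hairpins. The sterol element (TCACNCCAC) was found in 1 of the 110 higher genes (0.909%, against 0.808% of tested genes), and the AP-1 site (TGANTCA) in 4 of them (3.64%, against 3.78%).

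Many, though not most, of the tested amino acid response genes were higher past the test with PEA15 shRNA #2. A difference above 0 was seen in 54 of the 61, against 5327 of 11253 over all genes. Over the 5 lists on ATF4, its stress effectors, amino acid enzymes, amino acid transporters and cytosolic tRNA synthetases, 29 of 61 tested genes were higher and 0 were lower, with a median difference of 0.65. Over all 11253 genes, each by its brightest probe, 1.06% were higher and 0.729% lower, with a median of -0.01. These 29 genes made up 24.4% of the genes higher by that count. Of the other 32 genes of these lists, 25 had a difference above 0. Without any 1 array the lists kept at most 2 called members each, while their medians stayed between 0.34 and 0.96 under all the settings tried.

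In the list of ATF4 and its partners, 5 of 8 tested members were higher and the median difference was 0.77. TRIB3, 1 of the 5, is not a transcription factor. ATF4 had levels of 13.25 and 13.24 with PEA15 shRNA #2, against 12.47 and 12.35 with PEA15 shRNA #1, a difference of 0.83 ± 0.10 (limma adjusted p = 0.0288). A second ATF4 probe gave 1.28 (limma adjusted p = 0.00969), while a dimmer one gave -0.07 (limma adjusted p = 0.761), so its probes disagree. DDIT3, which encodes the stress factor CHOP, had levels of 8.63 and 8.64 with PEA15 shRNA #2, against 7.06 and 6.84 with PEA15 shRNA #1 (difference 1.68 ± 0.12, limma adjusted p = 0.00589). ATF3, a stress-induced factor of the same family, had levels of 8.80 and 8.78 with PEA15 shRNA #2, against 7.26 and 7.32 with PEA15 shRNA #1 (1.5 ± 0.10, limma adjusted p = 0.00585). TRIB3, a pseudokinase that is induced by ATF4 and CHOP, had levels of 10.74 and 10.73 with PEA15 shRNA #2, against 8.94 and 8.87 with PEA15 shRNA #1 (1.83 ± 0.10, limma adjusted p = 0.00374). On the linear scale of the deposited signals, TRIB3 read 1770 and 1860 units with PEA15 shRNA #2, against 529 and 576 with PEA15 shRNA #1. The arrays of each hairpin lay close together and far from those of the other.

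Among the stress effectors, 8 of 13 tested members were higher and all 13 had a difference above 0, with a median of 0.85. CHAC1, an enzyme that breaks down glutathione, was detected on both PEA15 shRNA #2 arrays (6.47 and 6.51) and on neither PEA15 shRNA #1 array (measured means 6.49 and 4.36). It was therefore at least 3.14-fold higher with PEA15 shRNA #2, a bound set by the lowest level of a detected probe on the other arrays (limma adjusted p = 0.00374). CHAC1 was kept for the test only through PEA15 shRNA #2, so its passing is no support. DDIT4, an inhibitor of the growth kinase complex mTORC1, had levels of 12.12 and 11.89 with PEA15 shRNA #2, against 10.56 and 10.56 with PEA15 shRNA #1 (1.45 ± 0.12, limma adjusted p = 0.00969). STC2, a secreted glycoprotein, had levels of 9.61 and 9.64 with PEA15 shRNA #2, against 8.70 and 8.41 with PEA15 shRNA #1 (1.07 ± 0.13, limma adjusted p = 0.0252). VEGFA, the angiogenic growth factor, had levels of 7.92 and 7.72 with PEA15 shRNA #2, against 6.85 and 6.83 with PEA15 shRNA #1 (0.98 ± 0.11, limma adjusted p = 0.0227), and 0.83 at a second probe. For each of these genes the hairpins' arrays did not overlap, which held for 55.5% of all genes.

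In the list of amino acid synthesis enzymes 6 of 13 tested members were higher, with a median of 0.56. The 13 include PCK2 and ALDH2, which are not enzymes of amino acid synthesis, and PCK2 is 1 of the 6. ASNS, which makes asparagine, had levels of 12.62 and 12.64 with PEA15 shRNA #2, against 10.81 and 10.67 with PEA15 shRNA #1. Its difference was 1.88 ± 0.11, a 3.69-fold rise (limma adjusted p = 0.00374), and a second probe gave 1.73. The deposited ASNS signals were 6520 and 6760 units with PEA15 shRNA #2, against 1740 and 1790 with PEA15 shRNA #1. PSAT1, an aminotransferase of serine synthesis, had levels of 10.95 and 11.04 with PEA15 shRNA #2, against 9.48 and 9.40 with PEA15 shRNA #1 (1.55 ± 0.11, limma adjusted p = 0.00585). MTHFD2, of the mitochondrial one-carbon pathway that uses serine, had levels of 11.22 and 11.22 with PEA15 shRNA #2, against 10.22 and 10.25 with PEA15 shRNA #1 (0.99 ± 0.10, limma adjusted p = 0.0185). PCK2, the mitochondrial form of phosphoenolpyruvate carboxykinase, showed the largest rise of the comparison. Its levels were 9.89 and 9.69 with PEA15 shRNA #2, against 7.77 and 7.53 with PEA15 shRNA #1 (2.14 ± 0.13, 4.42-fold, limma adjusted p = 0.00391). Its other probes gave 2.00 (limma adjusted p = 0.0107) and 0.47 (limma adjusted p = 0.274).

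Amino acid transporters were higher for 7 of 10 tested members, and all 10 had a difference above 0, with a median of 0.85. SLC7A11, the light chain of the cystine and glutamate exchanger, had levels of 6.51 and 6.60 with PEA15 shRNA #2, against 5.13 and 4.66 with PEA15 shRNA #1, where 1 of the 2 arrays detected it (1.66 ± 0.17, limma adjusted p = 0.0174). SLC3A2, the heavy chain it pairs with, had levels of 10.67 and 10.61 with PEA15 shRNA #2, against 9.63 and 9.60 with PEA15 shRNA #1 (1.02 ± 0.10, limma adjusted p = 0.0174), and its second probe gave 1.34. The glycine transporter SLC6A9 had levels of 7.02 and 7.22 with PEA15 shRNA #2, against 5.81 and 5.57 with PEA15 shRNA #1 (1.43 ± 0.13, limma adjusted p = 0.0144). The cationic amino acid transporter SLC7A1 had levels of 10.65 and 10.68 with PEA15 shRNA #2, against 9.62 and 9.61 with PEA15 shRNA #1 (1.05 ± 0.10, limma adjusted p = 0.0162). The arrays of these 4 genes did not overlap between hairpins, as for 55.5% of all genes. SLC7A11, 1 of the 7, was kept for the test only through PEA15 shRNA #2, so its passing is no support.

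Aminoacyl-tRNA synthetases load amino acids onto their tRNAs, with separate enzymes for the cytosol and the mitochondrion in most cases. Of the 18 cytosolic enzymes tested 4 were higher, with a median of 0.37, while of the 15 mitochondrial ones 0 passed by limma (1 at an unadjusted p under 0.05), with a median of -0.04 and a range of -0.30 to 0.33. GARS1, for glycine, had levels of 12.02 and 11.97 with PEA15 shRNA #2, against 11.06 and 11.07 with PEA15 shRNA #1 (0.93 ± 0.10, limma adjusted p = 0.0211). AARS1, for alanine, had levels of 11.93 and 11.99 with PEA15 shRNA #2, against 11.03 and 11.13 with PEA15 shRNA #1 (0.88 ± 0.10, limma adjusted p = 0.0245). MARS1 and YARS1, for methionine and tyrosine, each differed by 0.65 (limma adjusted p = 0.0428 and 0.0436). The difference between the cytosolic and mitochondrial enzymes was not itself tested.

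The kinases, phosphatase subunits and exchange factor subunits that act on eIF2 had 0 members past the limma test among 14 (4 at an unadjusted p under 0.05), with a median of 0.04. Among all probes 4327 of 19151 had an unadjusted p under 0.05. EIF2AK4, which encodes the amino acid sensor GCN2, had levels of 7.61 and 7.84 with PEA15 shRNA #2, against 7.25 and 7.17 with PEA15 shRNA #1 (0.52 ± 0.12, limma adjusted p = 0.0883). PPP1R15A, whose product GADD34 brings a phosphatase to eIF2, differed by 0.43 ± 0.10 (limma adjusted p = 0.0923). EIF2B2, a subunit of the exchange factor, differed by -0.40 ± 0.10 (limma adjusted p = 0.102). Phosphorylation of eIF2 is not measured by these arrays.

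**Figure D2:**
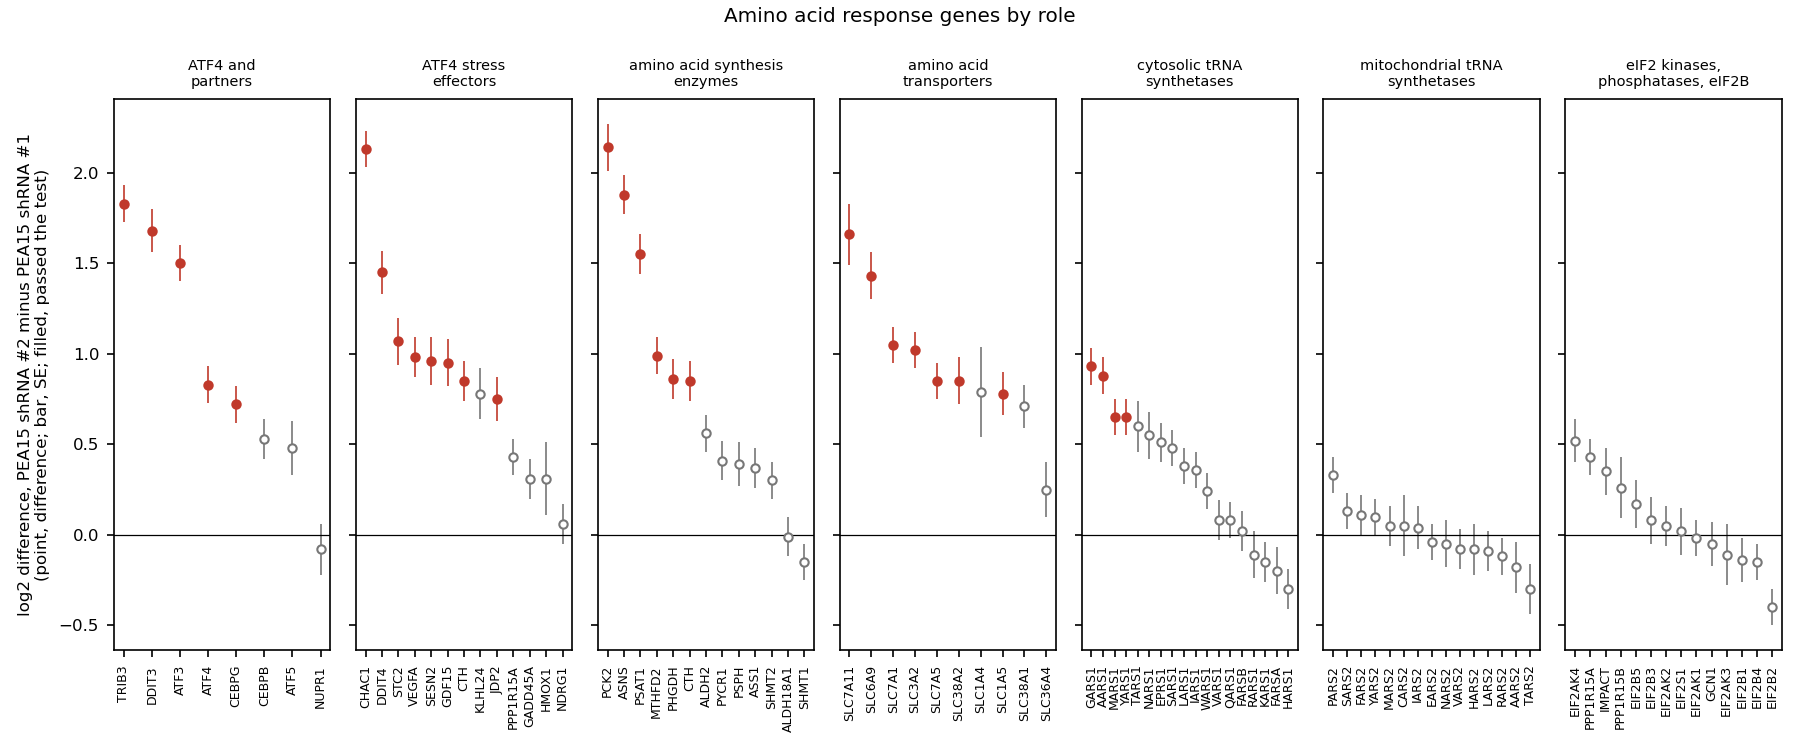
Log2 difference (PEA15 shRNA #2 minus PEA15 shRNA #1) with its SE for each tested gene of 7 lists, sorted within each list, filled red where the gene was higher past the test. The first 5 panels hold 29 differently named red genes in 61, with CTH shown in 2 panels, and the mitochondrial synthetases and the eIF2 regulators hold 0.

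The unfolded protein response raises chaperones and folding enzymes of the endoplasmic reticulum, and one of its arms also runs through ATF4. Of 23 tested genes of folding and the unfolded protein response 1 was higher and 0 were lower, with a median of -0.07, against 1.06% higher over all genes. The exception was XBP1, a transcription factor of that response, with levels of 10.55 and 10.61 with PEA15 shRNA #2, against 9.60 and 9.70 with PEA15 shRNA #1 (0.93 ± 0.10, limma adjusted p = 0.0211). Its second probe gave 0.65 and did not pass (limma adjusted p = 0.0527). MANF and CRELD2, secreted products of stress in the endoplasmic reticulum, gave -0.38 (limma adjusted p = 0.149) and -0.36 (limma adjusted p = 0.125).

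Among 14 tested heat shock chaperones 1 was lower, and 11 of the 14 had a difference below 0, with a median of -0.14. Over all genes 0.729% were lower and 5926 of 11253 lay below 0. HSPA1B, an inducible HSP70, had levels of 11.04 and 11.15 with PEA15 shRNA #2, against 11.88 and 11.89 with PEA15 shRNA #1 (-0.79 ± 0.10, limma adjusted p = 0.03). Its sequence is nearly identical to that of HSPA1A, so the gene of origin is uncertain. The co-chaperones HSPH1 and DNAJB1 gave -0.65 (limma adjusted p = 0.0677) and -0.60 (limma adjusted p = 0.0708).

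Cholesterol synthesis is controlled by SREBP transcription factors, which sterols and INSIG proteins hold back in the endoplasmic reticulum. Of 25 tested genes of cholesterol and fatty acid synthesis 4 were higher and 0 lower, and 21 had a difference above 0, with a median of 0.36, against 1.06% higher and 5327 of 11253 above 0 over all genes. HMGCS1, an early enzyme of the cholesterol pathway, had levels of 10.02 and 9.85 with PEA15 shRNA #2, against 8.84 and 8.94 with PEA15 shRNA #1 (1.05 ± 0.11, limma adjusted p = 0.0211). INSIG1 had levels of 10.05 and 10.08 with PEA15 shRNA #2, against 9.14 and 9.30 with PEA15 shRNA #1 (0.84 ± 0.11, limma adjusted p = 0.0296), and 0.71 at a second probe (limma adjusted p = 0.0423). SREBF1, the gene of SREBP-1, gave 0.74 (limma adjusted p = 0.0409) and SQLE, which oxidises squalene, 0.64 (limma adjusted p = 0.0428). Second probes of SREBF1 and SQLE gave 0.53 and 0.49 and did not pass (limma adjusted p = 0.0644 and 0.0741). All 4 genes had non-overlapping arrays, as had 55.5% of all genes.

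The called genes of the other metabolic groups were few, and over all genes 1.06% were higher and 0.729% lower. Among 29 tested genes of glycolysis and hypoxia 4 were higher, with a median of 0.01: VEGFA, the hexokinase-like gene HKDC1 (1.27 ± 0.17, limma adjusted p = 0.0307), the neuronal-type glucose transporter SLC2A3 (0.94 ± 0.14, limma adjusted p = 0.0352) and the aldolase ALDOC (0.81 ± 0.11, limma adjusted p = 0.0296). Of 25 regulators of mTORC1 the called ones were DDIT4 and SESN2, a leucine-binding inhibitor (0.96 ± 0.13, limma adjusted p = 0.0305). Of 22 genes of NRF2, glutathione and thioredoxin the called ones were SLC7A11 and the thioredoxin reductase TXNRD1, with levels of 10.88 and 10.72 with PEA15 shRNA #2, against 9.97 and 10.04 with PEA15 shRNA #1 (0.80 ± 0.11, limma adjusted p = 0.0326). A second TXNRD1 probe gave 0.42 and did not pass (limma adjusted p = 0.0903). The NRF2 target NQO1 gave -0.41 (limma adjusted p = 0.0973), and -0.23 at a dim probe. Of 24 autophagy and lysosome genes ATG12, a ubiquitin-like conjugation factor, was higher (0.79 ± 0.10, limma adjusted p = 0.0292, second probe 0.97). By limma 0 of 30 oxidative phosphorylation subunits passed (1 at an unadjusted p under 0.05, median 0.01), and 0 of 29 ribosomal proteins (2 at an unadjusted p under 0.05, median 0.07).

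The remaining genes among the 12 largest rises are in none of the 5 lists on ATF4 and amino acids. Whether they belong to that response was not tested. KRT80, a type II keratin, had levels of 8.96 and 8.93 with PEA15 shRNA #2, against 6.98 and 6.86 with PEA15 shRNA #1 (2.02 ± 0.11, 4.06-fold, limma adjusted p = 0.00374). It was the called gene among 9 tested keratins, against 1.06% higher over all genes. TNFSF18, the ligand of the lymphocyte receptor GITR, had levels of 7.33 and 7.35 with PEA15 shRNA #2, against 5.23 and 5.67 with PEA15 shRNA #1 (1.89 ± 0.16, limma adjusted p = 0.00969). ULBP1, a surface ligand of the natural killer cell receptor NKG2D, had levels of 7.68 and 7.88 with PEA15 shRNA #2, against 6.28 and 6.30 with PEA15 shRNA #1 (1.49 ± 0.11, limma adjusted p = 0.00761). ALPK2, an alpha-kinase, had levels of 6.29 and 6.42 with PEA15 shRNA #2, against 4.79 and 4.92 with PEA15 shRNA #1, where 1 of the 2 arrays detected it (1.5 ± 0.11, limma adjusted p = 0.00743). The ALPK2 promoter is 1 of the 8 among 110 higher genes that hold a match to the ATF4 and C/EBP site.

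The largest fall was that of ADAM19. ADAM19, a membrane metalloproteinase that sheds surface proteins, had levels of 8.75 and 8.71 with PEA15 shRNA #2, against 10.78 and 10.69 with PEA15 shRNA #1. Its difference was -2.00 ± 0.10 (limma adjusted p = 0.00374), and the deposited signals were 509 and 530 units with PEA15 shRNA #2, against 1710 and 1810 with PEA15 shRNA #1. FGF9, a secreted fibroblast growth factor, had levels of 7.35 and 7.34 with PEA15 shRNA #2, against 8.96 and 8.96 with PEA15 shRNA #1 (-1.62 ± 0.10, limma adjusted p = 0.00391). A second, dimmer FGF9 probe gave -0.30 and did not pass (limma adjusted p = 0.276). MMP7, the secreted protease matrilysin, had levels of 4.69 and 4.96 with PEA15 shRNA #2, against 5.72 and 6.18 with PEA15 shRNA #1, and 1 of the 2 PEA15 shRNA #2 arrays detected it (-1.13 ± 0.18, limma adjusted p = 0.0436), and its second probe gave -0.83. ADAM19 and MMP7 were the called genes among 13 tested genes of invasion and the mesenchymal state, against 0.729% lower over all genes.

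CEMIP and HAS3 act on hyaluronan, a polysaccharide of the extracellular matrix, CEMIP in its breakdown and HAS3 in its synthesis, and both fell. CEMIP had levels of 6.95 and 6.96 with PEA15 shRNA #2, against 8.72 and 8.84 with PEA15 shRNA #1 (-1.82 ± 0.11, limma adjusted p = 0.00374). HAS3 had levels of 8.30 and 8.43 with PEA15 shRNA #2, against 9.68 and 9.64 with PEA15 shRNA #1 (-1.29 ± 0.11, limma adjusted p = 0.00969), and a second HAS3 probe gave -1.30. For both genes the hairpins' arrays lay more than 1 log2 unit apart.

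The other 7 of the 12 largest falls were of diverse function. PKIB, an inhibitor of protein kinase A, had levels of 6.44 and 6.74 with PEA15 shRNA #2, against 7.93 and 8.13 with PEA15 shRNA #1 (-1.44 ± 0.14, limma adjusted p = 0.0174). PPP1R14C, an inhibitor of protein phosphatase 1, had levels of 7.07 and 7.18 with PEA15 shRNA #2, against 8.16 and 8.22 with PEA15 shRNA #1 (-1.07 ± 0.11, limma adjusted p = 0.0174). DCK, which phosphorylates deoxycytidine for DNA synthesis, had levels of 8.52 and 8.61 with PEA15 shRNA #2, against 9.51 and 9.71 with PEA15 shRNA #1 (-1.04 ± 0.12, limma adjusted p = 0.0211). The group also held KATNAL1, a katanin-like microtubule gene (-1.27, limma adjusted p = 0.0125), ZCCHC12, a zinc finger coactivator (-1.14, limma adjusted p = 0.0211), and RBMS1, an RNA-binding protein (-1.10, limma adjusted p = 0.0211). For RBMS1 a pair of further probes gave -0.23 (limma adjusted p = 0.24) and -0.16 (limma adjusted p = 0.749). ELF5, an epithelial ETS transcription factor, was detected on neither PEA15 shRNA #2 array (4.87 and 4.57) and on both PEA15 shRNA #1 arrays (5.94 and 5.64), which makes it at least 1.93-fold lower with PEA15 shRNA #2 (limma adjusted p = 0.0337). CHAC1, SLC7A11, ALPK2, MMP7 and ELF5 were kept for the test only through the hairpin with which they are brighter. The filter favours a difference for such probes, so their passing the test is no support. With detection required on all 4 arrays they were not tested, and the other 19 of the 24 largest rises and falls passed.

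**Figure D3:**
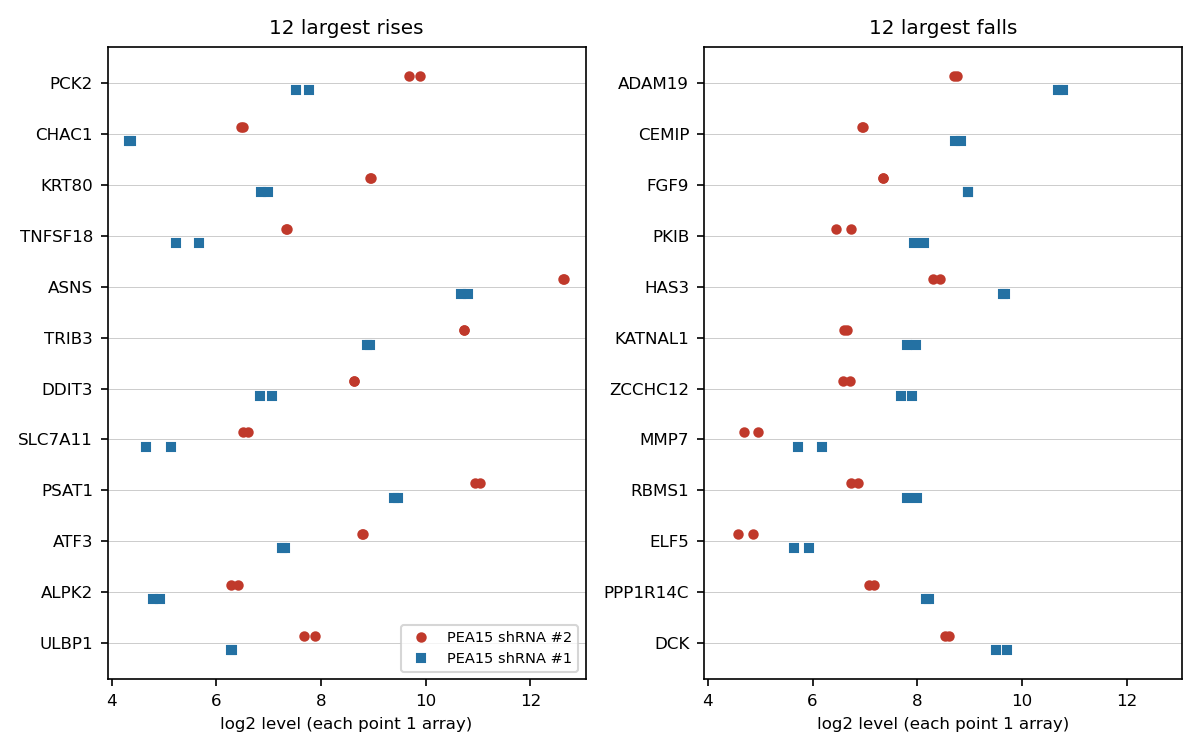
Log2 levels on each array for the 12 genes with the largest rises (left) and the 12 with the largest falls (right), PEA15 shRNA #2 as red circles above PEA15 shRNA #1 as blue squares. The genes were chosen among those whose arrays do not overlap (55.5% of all genes), and the plot shows the spread within each pair, narrow for ATF3 (8.80 and 8.78 with PEA15 shRNA #2, 7.26 and 7.32 with PEA15 shRNA #1) and wider for MMP7 (4.69 and 4.96, 5.72 and 6.18).

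Feedback targets of the Wnt pathway are switched on by beta-catenin, which carries an activating mutation in HCT116. Of 15 tested members 2 were lower and 0 higher, and 13 had a difference below 0, with a median of -0.37, against 0.729% lower and 5926 of 11253 below 0 over all genes. AXIN2, a scaffold of the complex that degrades beta-catenin, had levels of 8.12 and 8.0 with PEA15 shRNA #2, against 8.80 and 8.94 with PEA15 shRNA #1 (-0.81 ± 0.11, limma adjusted p = 0.0326). NOTUM, a secreted enzyme that inactivates Wnt proteins, had levels of 5.66 and 5.48 with PEA15 shRNA #2, against 6.58 and 6.27 with PEA15 shRNA #1 (-0.86 ± 0.14, limma adjusted p = 0.0469). ZNRF3, which removes Wnt receptors, gave -0.53 (limma adjusted p = 0.0641). LEF1, a partner of beta-catenin on DNA, ran the other way at 0.55 (limma adjusted p = 0.0563). It was detected on neither PEA15 shRNA #1 array, which makes it at least 1.25-fold higher with PEA15 shRNA #2.

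The title of the study concerns the cell cycle checkpoint after DNA damage. Over 4 lists of G1 regulators, DNA replication, mitosis and the DNA damage response, 1 of 91 tested genes passed at its brightest probe (1.1%, against 1.79% of all genes), with a median of -0.09. For CDKN1A and the mitotic gene KIF23 a dimmer probe passed where the brightest one did not. The 1 gene counted was CDC25A, a phosphatase that activates cyclin-dependent kinases, with levels of 8.34 and 8.36 with PEA15 shRNA #2, against 8.96 and 9.09 with PEA15 shRNA #1 (-0.68 ± 0.11, limma adjusted p = 0.0423). Its second probe gave -0.98 (limma adjusted p = 0.0213). CCNE1, the cyclin of the G1 to S transition, gave -0.53 (limma adjusted p = 0.0758, and -0.23 at a dim probe), and CCND1, the cyclin that binds CDK6, gave -0.41 (limma adjusted p = 0.0947). RRM2, a subunit of the reductase that makes deoxynucleotides, gave -0.62 (limma adjusted p = 0.0713) and the mitotic activator CDC20 gave -0.42 (limma adjusted p = 0.0927). Of the 91 genes 33 lay above 0, among them RBL2 at 0.34 (limma adjusted p = 0.124) and CDC25C at 0.33 (limma adjusted p = 0.174). Of 24 tested p53 targets 2 were higher, SESN2 and the secreted factor GDF15 (0.95 ± 0.13, limma adjusted p = 0.0326), with a median of 0.01. Both are also in the list of ATF4 stress effectors.

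PEA15 and its known binding partners had 0 members past the limma test of 12 (3 at an unadjusted p under 0.05), with a median of -0.12 and a range of -0.42 to 0.20. Among all probes 4327 of 19151 had an unadjusted p under 0.05. CAMK2D, a subunit of a kinase that phosphorylates PEA15, gave -0.42 (limma adjusted p = 0.0918) at its brightest probe and -0.62 (limma adjusted p = 0.0478) at a second one. Feedback genes and ETS outputs of ERK signalling had 2 called members of 20, against 1.79% called over all genes, with a median of -0.11. DUSP5, a nuclear phosphatase of ERK, had levels of 10.98 and 11.04 with PEA15 shRNA #2, against 10.26 and 10.16 with PEA15 shRNA #1 (0.80 ± 0.11, limma adjusted p = 0.03). ETV5, an ETS factor induced by ERK, gave 0.62 ± 0.10 (limma adjusted p = 0.0479), with 0.55 at a second probe that did not pass (limma adjusted p = 0.0638). MYC, of the same list, gave 0.48 (limma adjusted p = 0.077) at its brightest probe and 0.71 at a second probe that passed (limma adjusted p = 0.0428). Of the 20 members 8 lay above 0 and 12 below. Among the lower ones CCND1 gave -0.41 (limma adjusted p = 0.0947), DUSP6 -0.40 (limma adjusted p = 0.158) and DUSP4 -0.38 (limma adjusted p = 0.124). Among 12 tested AP-1 subunits the called one was ATF3, while JUND gave 0.54 (limma adjusted p = 0.0776), FOSB 0.39 (limma adjusted p = 0.122) and BATF3 -0.41 (limma adjusted p = 0.134), and 5 of the 12 lay below 0.

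Of 16 tested BCL2 family members BCL2, the founding inhibitor of apoptosis, was lower, with levels of 5.03 and 5.15 with PEA15 shRNA #2, against 5.71 and 5.91 with PEA15 shRNA #1 (-0.72 ± 0.12, limma adjusted p = 0.0473). The death-promoting members HRK, BID and BCL2L11 gave 0.65 (limma adjusted p = 0.0622), -0.41 (limma adjusted p = 0.0924) and -0.44 (limma adjusted p = 0.148). Of 17 tested genes of epithelial junctions and adhesion 2 were lower. Over all genes 0.729% were lower, the share to set beside this list and the BCL2 family. CEACAM1, an adhesion molecule, had levels of 6.32 and 6.51 with PEA15 shRNA #2, against 7.22 and 7.32 with PEA15 shRNA #1 (-0.85 ± 0.12, limma adjusted p = 0.0314), and its second probe gave -0.26 and did not pass (limma adjusted p = 0.211). DSC2, a desmosomal cadherin, gave -0.63 ± 0.11 and lay at the threshold (limma adjusted p = 0.05 after rounding), and its second probe gave -0.87 and did not pass (limma adjusted p = 0.0502).

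Interferon genes are of interest in hairpin experiments because double-stranded RNA can switch them on. Of 30 tested members 1 was higher, and 22 had a difference above 0, with a median of 0.18. The share called, 3.33%, is near the 1.79% of all genes, of which 5327 of 11253 lay above 0. IFI27 had levels of 7.90 and 7.69 with PEA15 shRNA #2, against 6.92 and 6.87 with PEA15 shRNA #1 (0.90 ± 0.12, limma adjusted p = 0.0296). IFIT2, an inhibitor of translation, gave 0.54 (limma adjusted p = 0.0635) and IFITM1, a membrane protein that blocks virus entry, 0.76 (limma adjusted p = 0.0691). The machinery that processes hairpins had 0 members past the limma test of 13 (3 at an unadjusted p under 0.05), with a median of -0.11. DICER1, which cuts hairpins, gave -0.26 (limma adjusted p = 0.218) and 0.50 at a dim probe (limma adjusted p = 0.316). TNRC6A, a partner of Argonaute proteins, gave -0.42 (limma adjusted p = 0.131) and -0.15 at a dim probe. By limma 0 members passed at their brightest probe in 5 further lists. At an unadjusted p under 0.05 these held 4 of 12 NF-kB genes (median 0.11), 9 of 16 YAP and TEAD targets (median 0.26) and 4 of 11 genes of the EGF family and its receptors (median 0.04). They also held 3 of 18 small Cajal body and nucleolar RNAs (median -0.18) and 2 of 10 replication-dependent histones (median 0.02). Among all probes 4327 of 19151 had an unadjusted p under 0.05. The YAP and TEAD target AXL gave 0.57 (limma adjusted p = 0.0521) at its brightest probe. A second AXL probe gave 0.71 and passed (limma adjusted p = 0.0352).

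The marker genes were those of an epithelial line with both hairpins. All 5 epithelial markers (EPCAM, KRT8, KRT18, KRT19 and CDH1) were detected and 0 passed the limma test (0 at an unadjusted p under 0.05). EPCAM, an adhesion molecule of epithelia, had levels of 12.51 and 12.52 with PEA15 shRNA #2, against 12.61 and 12.73 with PEA15 shRNA #1. Of 6 fibroblast markers 1 was tested, COL1A1, with levels of 5.76 and 5.44 with PEA15 shRNA #2, against 5.42 and 5.67 with PEA15 shRNA #1 (limma adjusted p = 0.864). Of 8 blood and endothelial markers 7 are on the array and 1 was tested, CD14, with levels of 4.97 and 4.98 with PEA15 shRNA #2, against 5.09 and 5.10 with PEA15 shRNA #1, near the lowest level of a detected probe (4.81 to 4.87).

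**Figure D4:**
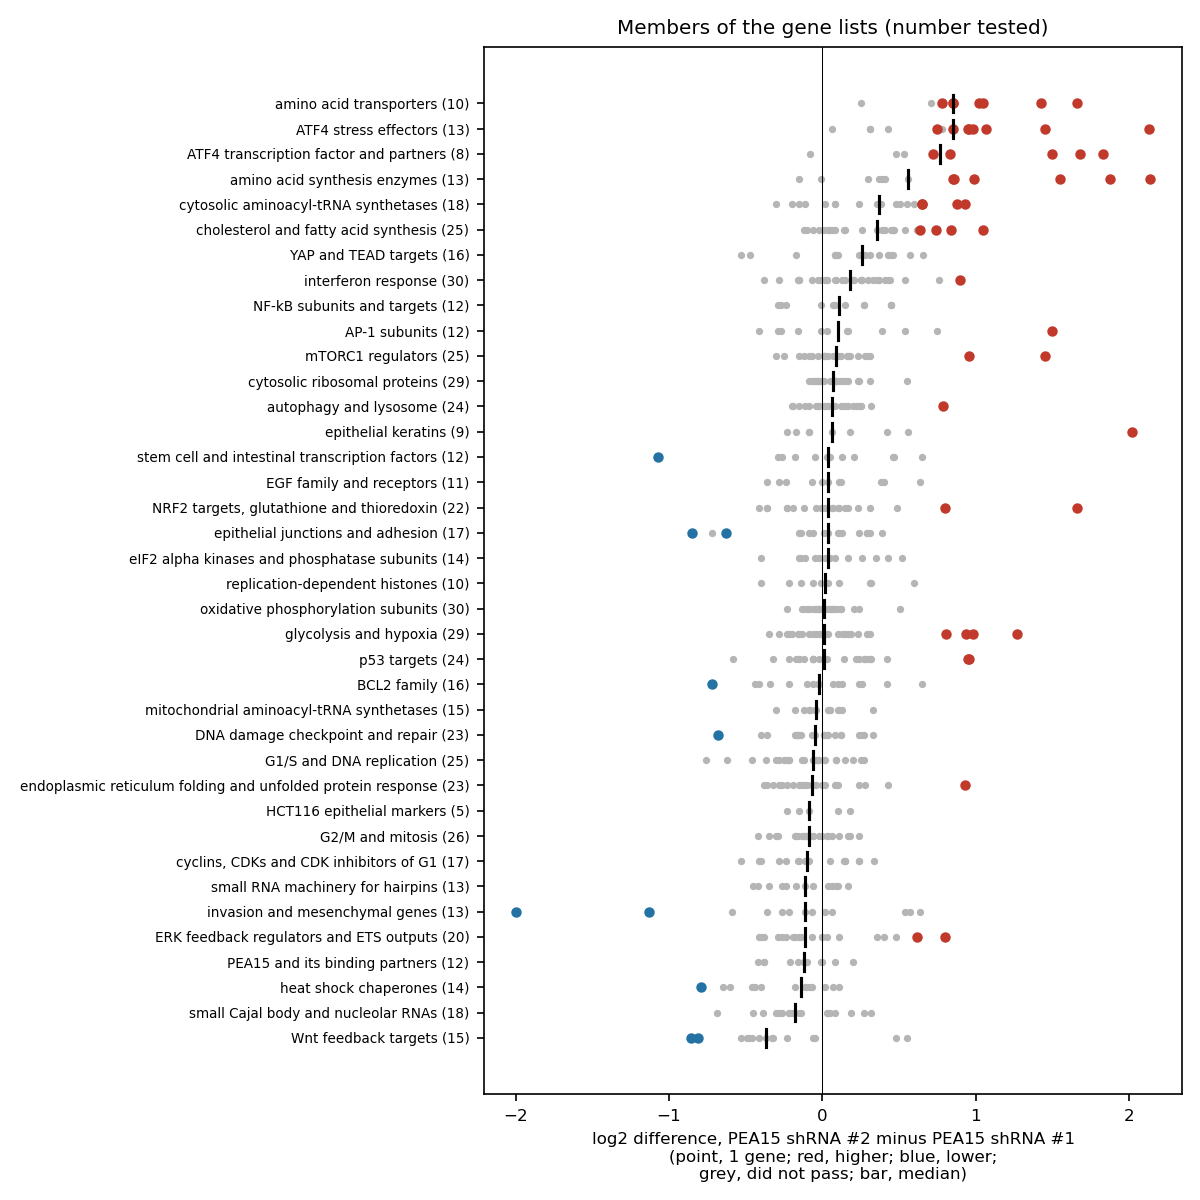
Log2 difference (PEA15 shRNA #2 minus PEA15 shRNA #1) of each tested gene in each list with at least 5 tested genes, with the list's median as a bar, higher genes in red and lower ones in blue. The 4 top lists, on ATF4 and amino acids, have medians of 0.56 to 0.85, and the Wnt list at the bottom has -0.37, against -0.01 for all genes.

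Some probes were detected with 1 hairpin only. Of these, 357 were detected on both PEA15 shRNA #2 arrays and neither PEA15 shRNA #1 array (211 with a gene), and 331 the other way round (194 with a gene). They entered the comparison through the hairpin in which they are brighter. Of the 357 probes 23 passed the limma test and of the 331 probes 14, and these are among the 338 called (1.76% of all probes). Because the filter favours a difference for such probes, passing the test is no support for them, and they are given as a description. They are dim, with a median level of 5.02 each way. Besides CHAC1 and a second KRT80 probe (at least 1.61-fold higher), the brightest detected only with PEA15 shRNA #2 was INHBE, a secreted inhibin beta subunit. INHBE had levels of 5.87 and 5.66 with PEA15 shRNA #2, against 4.47 and 4.54 with PEA15 shRNA #1, and was at least 1.9-fold higher. A dim probe of RCAN1, a regulator of calcineurin, was at least 1.85-fold higher, while the gene's brightest probe, detected on all 4 arrays, gave -0.06 (limma adjusted p = 0.774). ST3GAL3, a sialyltransferase, was at least 1.6-fold higher and did not pass (limma adjusted p = 0.0506). Detected only with PEA15 shRNA #1, besides ELF5, were the antisense gene SLCO4A1-AS1 (at least 1.58-fold lower with PEA15 shRNA #2) and a probe of ISM1 (at least 1.52-fold lower). ISM1's brighter probe gave -0.03 (limma adjusted p = 0.882). F8A3 and TELO2 were at least 1.55-fold and 1.49-fold lower.

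Where a called gene had more than 1 tested probe, the probes mostly shared a side. Of 97 such genes 26 had at least 2 probes called, 86 had every probe on the same side of 0, and 11 had a probe on the other side.

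The number of calls moved widely with the processing. It was 1812 on quantile-normalized signals and 1845 on the authors' deposited values, against 25 with no filter on detection. In the settings that kept all 4 arrays, between 25 and 337 of the 338 probes stayed called. In the 13 alternatives in which they were tested 0 of the 338 changed sign. That was all but fixed in advance, because all 338 had arrays that do not overlap between hairpins, so it is no support for them.

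**Figure D5:**
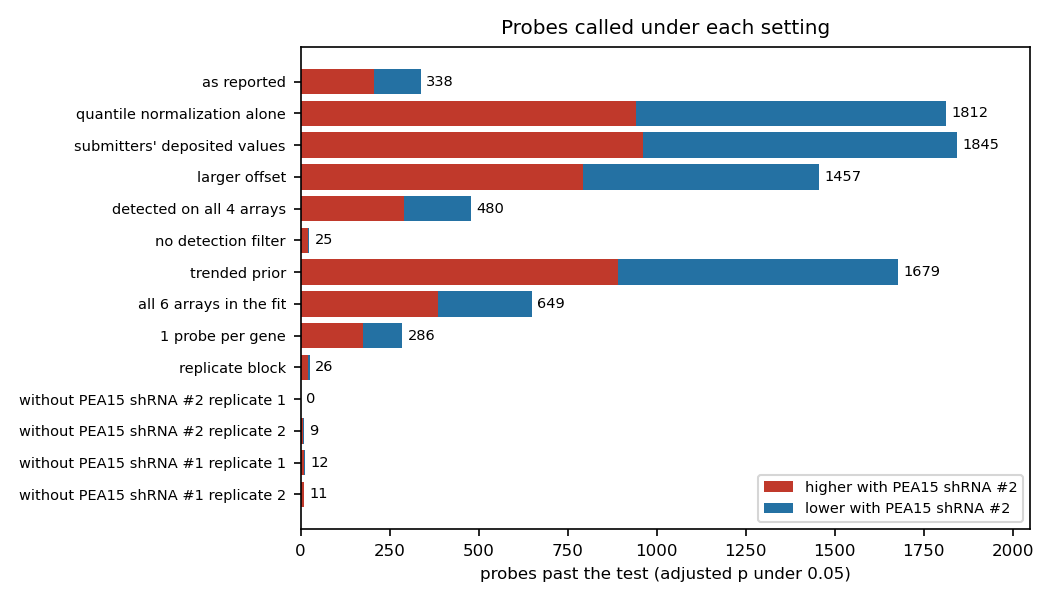
Number of probes past the test (adjusted p under 0.05) under each setting, split into those higher (red) and lower (blue) with PEA15 shRNA #2. The bars run from 0 without replicate 1 of PEA15 shRNA #2 to 1845 on the deposited values, with 338 as reported.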

How the data were processed

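Per the labels' protocols, Trizol-extracted total RNA was turned into biotinylated cRNA for Illumina arrays. Per the file headers, the deposited non-normalized table gives each probe's intensity on each array, on a linear scale. It also gives a deposited detection p-value per probe and array, which on this platform compares the probe with negative control beads. The authors' deposited log2 values were made with lumi, per the submitters' processing notes, with no version given. By their values they are quantile normalized, and they served as an alternative.

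Here neqc (limma 3.58.1, R 4.3.3) was run on the 4 hairpin arrays alone (background from the detection p-values, offset 16, quantile, log2), so folds of dim genes are understated. Group means were fitted with lmFit and eBayes (2 residual and 4.39 prior degrees of freedom), two-sided, and adjusted by Benjamini-Hochberg over 19151 probes. The number of arrays limits the precision, and slide or scan batches are not given in the sources used here. The code was tested on simulated data.

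Symbols came from the platform annotation, in which 17202 of 47323 probes are not listed and 8 have several genes. In list counts a gene stands by its brightest tested probe over the 4 arrays. The 40 lists overlap. A gene detected on neither array of a group was set against the higher of its own value and the lowest detected level.

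Named are PEA15, CDK6 and JUN, the 12 largest rises and falls among called, non-overlapping genes, up to 4 members per list by smallest adjusted p, and the 5 brightest genes detected with 1 hairpin. The genes described under other observations, and the promoters shown, were chosen after their values were seen. The comparison, lists and rules were chosen with earlier results of these data known. Alternatives were other normalizations, offsets, filters and priors, all 6 arrays, 1 probe per gene, the replicate number as a block and leaving out each array.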

Additional observations from a re-analysis of the deposited data

How the results depend on the processing

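The count of 338 probes (207 higher and 131 lower with PEA15 shRNA #2) became 1812 (943 and 869) on quantile-normalized signals, 1845 (963 and 882) on the authors' deposited values, 1457 (793 and 664) with an offset of 50, 1679 (893 and 786) with a trended prior, 649 (385 and 264) with all 6 arrays in the fit and 25 (20 and 5) with no filter on detection, where 47323 probes share the adjustment. The causes of the other shifts were not tested. With 16937 probes detected on all 4 arrays it was 480, and with 1 probe per gene 286. With the replicate number as a block it was 26 (22 and 4). The numbers are not known to pair the samples (correlation of same-numbered arrays' deviations 0.084, 2 numbers). Leaving out 1 array gave 0 to 12 probes (0 to 10 higher and 0 to 2 lower), with 1 residual degree of freedom. The PEA15 difference passed at -0.29 (limma adjusted p = 0.0358) on quantile-normalized signals and at -0.28 (limma adjusted p = 0.0368) on the deposited values. Its adjusted p ranged from 0.0358 to 0.394 over the alternatives, and from -0.49 to -0.27 in size without 1 array. Near 0, the differences of COL1A1 (-0.10 to 0.21), RCAN1's brightest probe (-0.14 to 0.01), ISM1's (-0.13 to 0.05) and VIM's (-0.16 to 0.03) changed sign without 1 array, COL1A1 also at -0.07. Probes detected with PEA15 shRNA #2 only numbered 211 at a detection p under 0.01 and those with PEA15 shRNA #1 only 225, the reverse of their order as reported (357 and 331). With 1 array per hairpin they numbered 1534 to 2347, and those with PEA15 shRNA #1 only 1643 to 2018.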

Other observations

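Some genes outside the groups above moved at several probes. They were chosen after their values were seen and carry no claim beyond their values. TSC22D3, which encodes the glucocorticoid-induced leucine zipper protein, had levels of 8.56 and 8.54 with PEA15 shRNA #2, against 7.09 and 7.12 with PEA15 shRNA #1, a difference of 1.44 (limma adjusted p = 0.00589), and 1.85 at a second probe (limma adjusted p = 0.00391). SGK1, a kinase that glucocorticoids also induce, was lower at all 3 of its tested probes, with differences of -1.01, -0.98 and -0.94 (limma adjusted p = 0.0436, 0.0227 and 0.0211). MBNL2, a splicing regulator, rose by 1.28 at its brightest probe (limma adjusted p = 0.00969), with 1.15 (limma adjusted p = 0.025) and 0.79 (limma adjusted p = 0.0532) at others.

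VSNL1, a neuronal calcium sensor, had levels of 8.99 and 8.91 with PEA15 shRNA #2, against 10.02 and 9.86 with PEA15 shRNA #1 (-0.99, limma adjusted p = 0.0212), and its second probe gave -0.80. TM4SF18, a membrane protein of the tetraspan-like family, gave -0.96 and -0.91 at its probes (limma adjusted p = 0.0211 at each). The olfactory receptor genes OR51B4 and OR51B5, which lie in one cluster, were both higher, by 0.76 (limma adjusted p = 0.0326) and 1.14 (limma adjusted p = 0.03). PRSS8, the epithelial protease prostasin, rose by 1.38 (limma adjusted p = 0.0211). MSX1, a homeobox transcription factor, had levels of 11.69 and 11.74 with PEA15 shRNA #2, against 12.49 and 12.60 with PEA15 shRNA #1 (-0.83, limma adjusted p = 0.0292). SDC1, the heparan sulfate proteoglycan syndecan-1, gave -0.76 (limma adjusted p = 0.0381).

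For a few genes a second probe passed where the brightest one did not. CDKN1A, the p21 inhibitor of cyclin-dependent kinases, had levels of 12.09 and 11.84 with PEA15 shRNA #2, against 12.18 and 12.04 with PEA15 shRNA #1 (-0.15, limma adjusted p = 0.539). Its dim probe read 5.33 and 5.03 with PEA15 shRNA #2, against 5.95 and 6.12 with PEA15 shRNA #1 (-0.86, limma adjusted p = 0.0436). VIM, the mesenchymal filament protein, gave -0.07 (limma adjusted p = 0.778) at its brightest probe and -0.65 (limma adjusted p = 0.0477) at a dim one. HSPA8, the constitutive HSP70, gave -0.46 (limma adjusted p = 0.0903) and -0.62 (limma adjusted p = 0.0495) at 2 bright probes.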
